A study of Mus musculus with 416 samples.

Results

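The level of a single transcript, Col1a2, was used to divide 416 striatum RNA libraries from drug-naive Diversity Outbred (J:DO) mice, a heterogeneous population bred from several founder strains. The libraries compared were chosen by their measured Col1a2 level. Within each of 3 breeding generations, labelled 21, 22 and 23, libraries in the upper 25% of Col1a2 CPM (counts per 1000000) formed the Col1a2-high class and libraries in the lower 25% the Col1a2-low class. Each class held 38 libraries of generation 21, 30 of generation 22 and 37 of generation 23, so that 210 of the 416 libraries were compared and the others lay between the classes. All libraries share the J:DO stock, the untreated state and the tissue, carry a label of female or male, and came from brains that were split along the midline, soaked in RNAlater and dissected by hand under a microscope. The classes are therefore no treatment groups: they rank libraries of naive mice by a gene of connective tissue, and the question is which other transcripts went up or down with it. Stated ages are not among the labels.

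Col1a2 encodes a chain of type I collagen, which assembles with chains encoded by Col1a1 into the fibres of connective tissue. In the brain the gene is known from fibroblasts of the meninges, from fibroblasts that line the larger vessels and from the stroma of the choroid plexus, and it is scarcely made by neurons. The striatum borders the lateral ventricle, where the choroid plexus floats, and a hand dissection can take along fragments of plexus, ependyma, pia or neighbouring nuclei. Meningeal fibroblasts are known for fibrillar collagens, small leucine-rich proteoglycans such as decorin, the growth factor Igf2, the retinoic acid enzyme Aldh1a2 and transporters such as Slc6a13. Choroid plexus epithelium is known for Ttr, the thyroid hormone carrier of cerebrospinal fluid.

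The promoter of the gene that set the classes and that of Col3a1, a fibrillar collagen that moved with it, are shown because the results turn on these genes and their promoters differ in which of a pair of common motifs they hold. Both are given on the gene's own strand for the 250 bases before the annotated start (RefSeq, GRCm38.p6). Capitals mark CCAAT in the Col1a2 promoter at chr6:4505368-4505617, and TTATAA in the Col3a1 promoter at chr1:45311288-45311537, which holds TATAA on both strands in overlapping positions.
Col1a2: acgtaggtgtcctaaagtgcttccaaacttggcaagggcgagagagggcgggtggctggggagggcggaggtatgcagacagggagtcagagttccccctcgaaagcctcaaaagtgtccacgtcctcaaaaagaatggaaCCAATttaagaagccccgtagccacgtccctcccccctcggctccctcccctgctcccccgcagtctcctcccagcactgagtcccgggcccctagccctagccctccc
Col3a1: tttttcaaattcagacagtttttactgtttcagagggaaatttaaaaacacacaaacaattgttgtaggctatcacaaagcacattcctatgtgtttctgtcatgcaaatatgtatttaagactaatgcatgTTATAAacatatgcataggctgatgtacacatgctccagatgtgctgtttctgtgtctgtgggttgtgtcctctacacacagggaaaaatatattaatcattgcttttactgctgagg
No TATAA was found in the Col1a2 window and no CCAAT in that of Col3a1. Searched on both strands, CCAAT occurred in 11120 (33.8%), TATAA in 7485 (22.8%) and both together in 2682 (8.16%) of 32851 promoter windows of the same length, so neither motif is rare. Each match in these promoters lies more than 100 bases before the start, so none is called a core promoter element here. The matches describe letters and not binding.

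Col1a2 levels, which defined the classes and so carry no test, ran from 4.65 to 24.3 CPM with a median of 6.67 CPM in Col1a2-high libraries, against 1.56 to 3.905 CPM with a median of 3.0004 CPM in Col1a2-low libraries. The raw count averaged 328.6 ± 164.7 in Col1a2-high and 131.6 ± 27.8 in Col1a2-low libraries (SD), and its lowest value in Col1a2-low libraries was 59, so the gene was counted in every library. The lowest Col1a2-high library of generation 21 had 5.66 CPM and the highest library outside the class 5.53 CPM, while the highest Col1a2-low library had 3.905 CPM and the next one up 3.96 CPM. The boundaries cut through a continuous range in every generation. In generation 22 they lay between 5.06 and 5.03 CPM above and between 3.300 and 3.304 CPM below, and in generation 23 between 4.65 and 4.62 CPM above and between 3.26 and 3.27 CPM below. The median of the Col1a2-high libraries was 6.86, 6.88 and 5.88 CPM in generations 21, 22 and 23, and that of the Col1a2-low libraries 3.29, 2.89 and 2.83 CPM.

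The classes had similar depth, with a median total of 44772375 counts (20331737 to 58901325) in Col1a2-high libraries and 43826992 counts (28456008 to 69482792) in Col1a2-low libraries. They were not alike in other ways. Of the 416 libraries, 38 stood apart by a low total (1 library) or a low median correlation with the others (37 libraries), and 28 of these were Col1a2-high, 3 Col1a2-low and 7 in between. Ttr was above 100 CPM, a limit chosen after the data were seen, in 42 Col1a2-high libraries (40%), 2 Col1a2-low libraries and 5 in between, the Ttr-rich libraries. Leaving out every library of either kind left 57 Col1a2-high and 100 Col1a2-low libraries, called the remaining libraries below, and results are given for all 210 and for these. Since Ttr is itself a plexus gene, this choice removes high plexus levels by construction: values of plexus genes in the remaining libraries are no result, and are not compared with those of other genes. Xist levels went against the labelled sex in 7 Col1a2-high and 4 Col1a2-low libraries.

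The 12 libraries of highest Col1a2, at 9.77 to 24.3 CPM, all had Ttr above 100 CPM, from 594.8 to 14201 CPM, and all stood apart. The highest of all, generation 21 female replicate 32, held, without further scaling, 24.3 CPM of Col1a2, 18.4 CPM of Col1a1, 22.5 CPM of Dcn, 394.9 CPM of Igf2 and 4431 CPM of Ttr. The next, generation 21 male replicate 26, held 22.4 CPM of Col1a2 and 14201 CPM of Ttr but 1.16 CPM of the meningeal transporter gene Slc6a13, against 7.76 CPM in the first. High Col1a2 thus came with different company in different libraries.

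**Figure D1:**
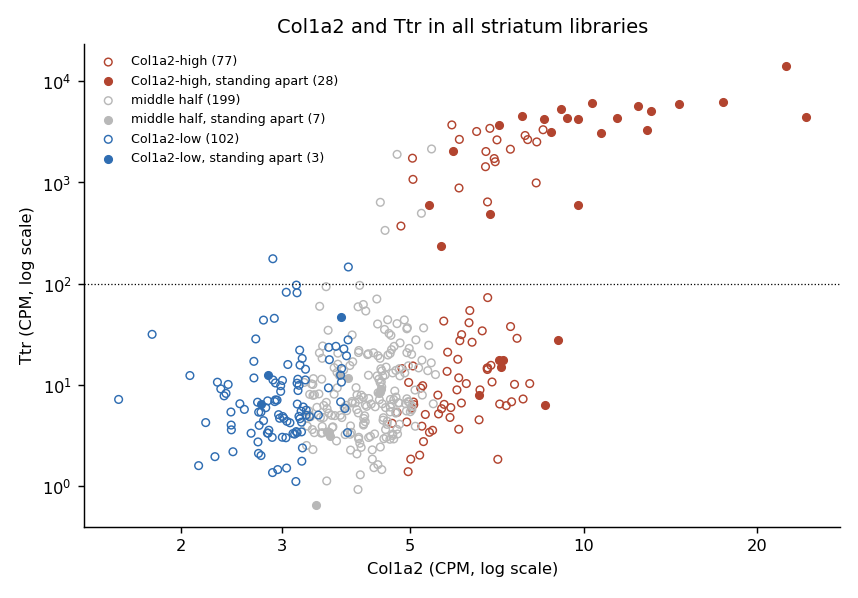
Each point is one of 416 libraries, by Col1a2 (x axis, CPM, log scale) and Ttr (y axis, CPM, log scale), in colours for the Col1a2-high, middle and Col1a2-low classes; filled points stand apart by total or correlation and the dotted line is 100 CPM of Ttr. Libraries above the line number 42 in the Col1a2-high class and 2 in the Col1a2-low class, and the 12 points farthest right are all above it.

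Labelled sex, which the classes did not use, was unequal between them. Of the Col1a2-high libraries 64 (60.95%) were labelled female, against 40 (38.1%) of the Col1a2-low libraries. The odds ratio was 2.52 (95% interval 1.40 to 4.595; p = 0.00144 by Fisher's exact test, two-sided). The median of Col1a2 was higher in libraries labelled female in all 3 generations, at 4.73 CPM in females and 4.39 CPM in males of generation 21, 4.48 and 4.06 CPM in generation 22, and 3.94 and 3.59 CPM in generation 23, although this order was not tested by itself. Y-linked Usp9y, a deubiquitinase gene chosen after its values were seen, was lower in Col1a2-high libraries by edgeR's quasi-likelihood test (log2 fold -3.37, SE 0.37, adjusted p 1.82e-15). With labelled sex as a covariate, in the presence of the libraries whose Xist went against the label, its log2 fold was -2.61 (adjusted p 0.000145). What this fold goes with beyond labelled sex was not tested, and no other Y-linked gene is given.

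Across the 23033 genes tested beside Col1a2, 3097 (13.4%) were higher and 1985 (8.62%) lower in Col1a2-high than in Col1a2-low libraries at an adjusted p under 0.05 (edgeR's quasi-likelihood test, generation as covariate, Benjamini-Hochberg), 5082 in all (22.1%). Most differences were small. The median absolute log2 fold of called genes was 0.12, and 483 genes were higher past 1.5-fold, while 24 were lower past 1.5-fold. Without libraries of Ttr above 100 CPM, 919 genes were called (3.97%), 2.87% of those tested being higher and 1.1% lower, and 819 of them were among the 5082. Without the libraries that stood apart alone, 1194 were called (5.19%). Without both kinds, 98 were called (0.424%), 79 of them higher (0.342%) and 19 lower (0.0823%), and 90 of the 98 were among the 5082. Fewer libraries entered that comparison, and Col1a2 itself differed less in it. In CPM scaled for library composition, the Col1a2-high median was 6.57 CPM (highest 25.4) in all and 5.93 CPM (highest 8.28) in the remaining libraries. The Col1a2-low median was 3.04 CPM in both. How much of the loss of calls, or of the smaller folds given below, goes with either was not tested.

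The genes of largest difference that are named here, led by Ttr, included many of choroid plexus epithelium. The classes are therefore named by Col1a2 and not by meninges. Levels over the classes are given from here on in CPM scaled for library composition (TMM). Ttr ran from 1.39 to 13901 CPM with a median of 26.3 CPM in Col1a2-high libraries, against 1.08 to 175.1 CPM with a median of 6.55 CPM in Col1a2-low libraries. In 42 Col1a2-high libraries it exceeded every Col1a2-low library, while the others overlapped that class. The log2 fold was 6.605 (SE 0.46, adjusted p 1.39e-29). Without the libraries that stood apart, a choice that did not use Ttr, it was 5.44 (SE 0.44, adjusted p 6.88e-22).

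Of 16 choroid plexus genes tested, 15 rose in Col1a2-high libraries, with a median log2 fold of 4.48 against 0.00 over all genes. Without the libraries that stood apart 15 rose again, with a median of 3.28, where 4.11% of all genes were higher. Among them, in all libraries, were Cldn2 (6.17), which encodes the tight junction protein of leaky epithelia, the bicarbonate transporter gene Slc4a5 (5.61), the water channel gene Aqp1 (5.38), the potassium channel subunit gene Kcne2 (5.004) and the folate receptor gene Folr1 (4.94), all as log2 folds. Kl, encoding the hormone co-receptor klotho, ran from 2.23 to 947 CPM with a median of 6.45 CPM in Col1a2-high libraries, against 2.47 to 14.7 CPM with a median of 4.46 CPM in Col1a2-low libraries. The medians were close and the upper end was not, with 42 Col1a2-high libraries above all Col1a2-low ones (log2 fold 4.11, SE 0.28, adjusted p 5.78e-30). The BMP antagonist gene Sostdc1, the prolactin receptor gene Prlr, the coagulation factor gene F5, the frizzled-related Mfrp and Otx2, a transcription factor gene of plexus identity, had log2 folds of 5.88, 4.85, 4.50, 3.84 and 3.81. In bulk RNA, more cells of a type and more RNA per cell cannot be told apart.

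The genes of type I and type III collagen rose with Col1a2. Col1a1, the partner chain of type I collagen, ran from 1.22 to 19.1 CPM with a median of 4.12 CPM in Col1a2-high libraries, against 1.44 to 4.62 CPM with a median of 2.68 CPM in Col1a2-low libraries. The ranges overlapped, but 98 Col1a2-high libraries lay above the Col1a2-low median and 35 above every Col1a2-low library. The fold was 1.66 (log2 fold 0.73, SE 0.061, adjusted p 5.4e-23), and it was nearly as large in the remaining libraries, at medians of 3.98 CPM in Col1a2-high and 2.66 CPM in Col1a2-low ones (log2 fold 0.65, SE 0.064, adjusted p 1e-14).

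Col3a1, the collagen of reticular fibres, ran from 0.666 to 6.13 CPM with a median of 1.94 CPM in Col1a2-high libraries, against 0.516 to 2.29 CPM with a median of 1.13 CPM in Col1a2-low libraries. Of the Col1a2-high libraries 97 were above the Col1a2-low median and 34 above the Col1a2-low maximum. The log2 fold was 0.86 (SE 0.073, adjusted p 2.3e-22) in all 210 libraries and 0.53 (SE 0.074, adjusted p 1.45e-07) in the remaining libraries. Type I and type III collagen genes were thus still higher when Ttr-rich libraries and those standing apart were left out.

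Of the 21 fibrillar and interstitial collagen genes tested, 8 rose, against 13.4% of all genes, none fell and the median log2 fold was 0.10. In the remaining libraries 3 rose, against 0.342% of all genes, with a median of 0.095. They were Col1a1, Col3a1 and the transmembrane collagen gene Col13a1 (log2 fold 0.45, adjusted p 0.00925). The other risers included Col8a1 (3.74) and Col8a2 (2.48), short-chain collagens of specialised basement membranes, Col18a1 (1.13), the precursor of endostatin, and Col14a1 (0.90), a fibril-associated collagen, as log2 folds. In the remaining libraries Col8a1 had a log2 fold of 0.23 (adjusted p 0.297) and Col14a1 one of 0.018 (adjusted p 0.968). Summed over the 21 genes, the level ran from 160.1 to 506.1 CPM with a median of 246.7 CPM in Col1a2-high libraries, against 125.8 to 331.2 CPM with a median of 226.9 CPM in Col1a2-low libraries. In the remaining libraries the medians of the sum had the opposite order, 220.7 CPM in Col1a2-high and 226.8 CPM in Col1a2-low ones. Col6a1, a chain of beaded-filament collagen that is also made by other brain cells, averaged 91.6 ± 26.004 CPM in Col1a2-high libraries and 95.8 ± 24.99 CPM in Col1a2-low libraries (SD over the libraries of each class; log2 fold -0.064, adjusted p 0.529).

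**Figure D2:**
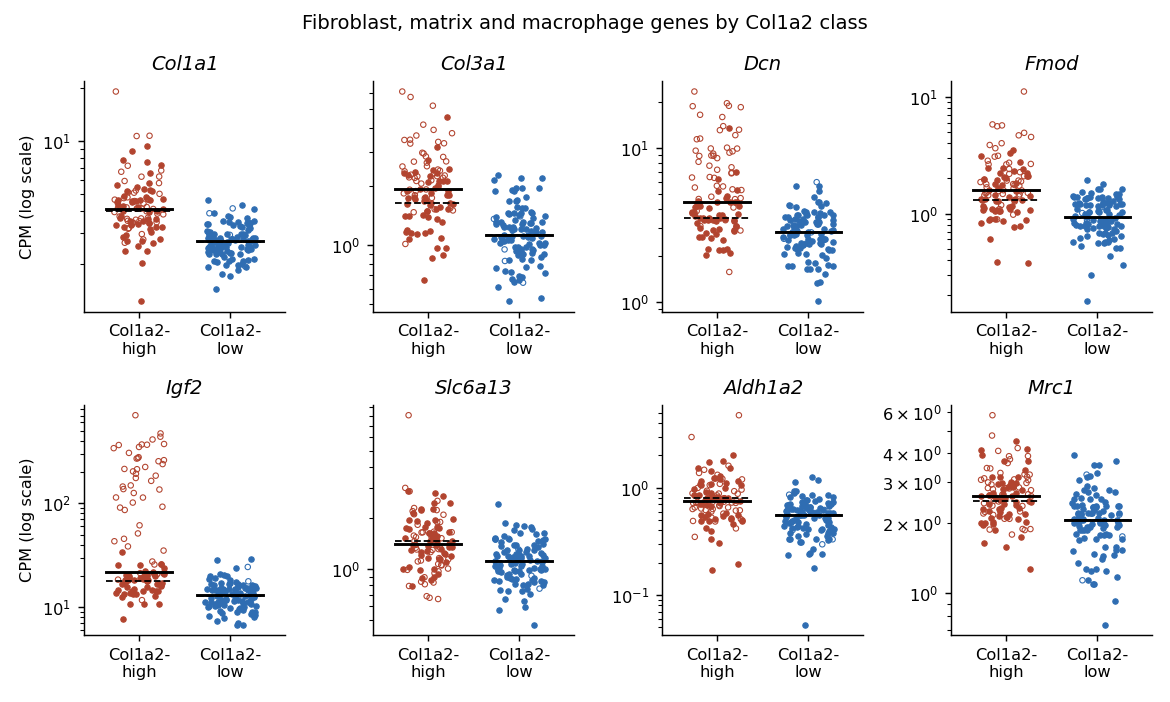
Levels of matrix, meningeal and macrophage genes (y axes, TMM-scaled CPM, log scale) in Col1a2-high and Col1a2-low libraries; hollow points are libraries with Ttr above 100 CPM or standing apart, solid lines are medians of all libraries and dashed lines medians of those left. For Col1a1 the medians of Col1a2-high and Col1a2-low libraries stay apart when the hollow points are ignored (3.98 and 2.66 CPM), and for Igf2 they are 17.7 and 12.9 CPM.

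Small leucine-rich proteoglycans, which coat collagen fibrils and set their thickness, rose in part as well. Of 12 tested, 7 rose, against 13.4% of all genes, and none fell (median log2 fold 0.38). In the remaining libraries 4 were still higher, against 0.342% of all genes (median 0.051). Decorin, Dcn, ran from 1.56 to 23.4 CPM with a median of 4.46 CPM in Col1a2-high libraries, against 1.01 to 6.01 CPM with a median of 2.83 CPM in Col1a2-low libraries. The classes overlapped over most of the range, with 36 Col1a2-high libraries above every Col1a2-low one. Its log2 fold was 1.08 (SE 0.10, adjusted p 8.21e-19) in all libraries and 0.37 (SE 0.077, adjusted p 0.00340) in the remaining ones.

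Fibromodulin, Fmod, ran from 0.374 to 11.1 CPM with a median of 1.59 CPM in Col1a2-high libraries, against 0.177 to 1.95 CPM with a median of 0.939 CPM in Col1a2-low libraries. It too was above the whole Col1a2-low range in 36 Col1a2-high libraries (log2 fold 1.02, SE 0.10, adjusted p 7.31e-19), and it was higher in the remaining libraries by a log2 fold of 0.62 (SE 0.090, adjusted p 3.54e-07). Biglycan, Bgn, was higher by 0.50 (SE 0.055) and osteoglycin, Ogn, by 1.32 (SE 0.12) on the log2 scale, and in the remaining libraries by 0.19 (adjusted p 0.00723) and 0.23 (adjusted p 0.0478). Prelp and Ecm2 rose in all libraries (0.58 and 0.53) and had log2 folds of 0.059 and 0.024 in the remaining ones (adjusted p 0.812 and 0.877).

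Of 31 elastic fibre, fibronectin and matricellular genes tested, 19 rose, against 13.4% of all genes, and none fell (median 0.27). In the remaining libraries, where 0.342% of all genes were higher, 3 rose (median 0.11). These were Thbs1, which encodes the matricellular protein thrombospondin, Mgp, an inhibitor of calcification, and Fn1, fibronectin, with log2 folds of 0.28, 0.29 and 0.20 in the remaining libraries (adjusted p 0.0138, 0.0322 and 0.0102). In all 210 libraries they were 1.86, 1.04 and 0.15. Fn1 was the even one: its medians were 37.5 CPM in Col1a2-high libraries (range 19.6 to 83.5) and 34.4 CPM in Col1a2-low libraries (range 19.98 to 48.5), overlapping in nearly all.

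Basement membrane genes and enzymes of collagen folding and turnover rose in part in all libraries, where 13.4% of all genes were higher and 8.62% lower. Of 21 basement membrane genes tested 12 rose and none fell (median log2 fold 0.23), among them Col4a3 (1.96), Col4a4 (1.46), the nidogen gene Nid2 (1.481) and the perlecan gene Hspg2 (0.73); none was called in the remaining libraries, where 0.342% of all genes were higher and the list's median was 0.066. The folds of Col4a3 and Col4a4 had the opposite sign there, -0.31 and -0.46 (adjusted p 0.229 and 0.117), and Col4a4 was lower without the Ttr-rich libraries alone (-0.43, adjusted p 0.0494). Col4a1 and Col4a2, the chains found around all brain vessels, had log2 folds of 0.064 and 0.058 (adjusted p 0.0845 and 0.0640). Of 34 enzymes and inhibitors 23 rose and 1 fell (median 0.21), and none was called in the remaining libraries (median 0.04). Mmp2, a gelatinase gene (1.76), Pcolce, an enhancer of procollagen cleavage (1.57), Lox, a crosslinking enzyme gene (0.71), and Serpinh1, the collagen chaperone gene (0.56), rose, and Adamts3, a procollagen peptidase gene, fell (-0.12, a call that ended under 15 of 22 alternatives). Serpinh1 and Pcolce came near the threshold in the remaining libraries, with log2 folds of 0.19 and 0.21 (adjusted p 0.0541 and 0.0727).

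Markers of leptomeningeal and perivascular fibroblasts rose in both sets of libraries. Of 46 tested, 32 rose, against 13.4% of all genes, and none fell (median log2 fold 0.31). In the remaining libraries 10 of 45 rose, against 0.342% of all genes, with a median of 0.16. Summed over the list, the level ran from 273.9 to 1756 CPM with a median of 381.2 CPM in Col1a2-high libraries, against 243.9 to 401.3 CPM with a median of 320.9 CPM in Col1a2-low libraries. That sum was above the whole Col1a2-low range in 48 Col1a2-high libraries. The list includes Igf2 and Slc13a4, which reached at most 33.96 and 3.93 CPM in the remaining Col1a2-high libraries. Their higher levels in this class were all in Ttr-rich libraries or those standing apart. How much of the excess in the 48 goes with plexus was not tested. In the remaining libraries it ran from 273.9 to 429 CPM with a median of 328.2 CPM in Col1a2-high ones, largely within the Col1a2-low range, and no member was at 0 over the libraries as a whole.

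Igf2, a growth factor gene of meninges and plexus stroma, ran from 7.69 to 705 CPM with a median of 21.9 CPM in Col1a2-high libraries, against 6.75 to 29.3 CPM with a median of 13.1 CPM in Col1a2-low libraries. Of the Col1a2-high libraries 98 were above the Col1a2-low median and 43 above the Col1a2-low maximum. The fold was 7.27 (log2 fold 2.86, SE 0.20, adjusted p 1.02e-29), and 1.33 in the remaining libraries (log2 fold 0.41, SE 0.064, adjusted p 4.47e-06), at medians of 17.7 CPM in Col1a2-high and 12.9 CPM in Col1a2-low ones. The highest levels were thus in the libraries left out, and a smaller difference was there without them.

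Slc6a13, Aldh1a2 and Slc22a6 had differences of similar size in all and in the remaining libraries. Slc6a13, a GABA transporter gene of meningeal fibroblasts, ran from 0.664 to 8.09 CPM with a median of 1.40 CPM in Col1a2-high libraries, against 0.467 to 2.41 CPM with a median of 1.11 CPM in Col1a2-low libraries. The classes overlapped widely, with 9 Col1a2-high libraries above all Col1a2-low ones, and its log2 fold was 0.46 (SE 0.070, adjusted p 2.21e-08) in all and 0.46 (SE 0.068, adjusted p 7.76e-07) in the remaining libraries. Aldh1a2, the retinoic acid enzyme gene of meninges, ran from 0.171 to 4.74 CPM with a median of 0.751 CPM in Col1a2-high libraries, against 0.0526 to 1.25 CPM with a median of 0.553 CPM in Col1a2-low libraries. It was above every Col1a2-low library in 13 Col1a2-high ones. Its log2 fold was 0.66 (SE 0.087, adjusted p 8.76e-11) in all and 0.60 (SE 0.092, adjusted p 2.04e-06) in the remaining libraries.

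The organic anion transporter gene Slc22a6 had a log2 fold of 0.49 (adjusted p 4.94e-06) in all and 0.58 (adjusted p 4.72e-06) in the remaining libraries. Slc47a1, a multidrug extrusion transporter gene, was rare, with means of 0.252 ± 0.229 CPM in the remaining Col1a2-high and 0.0981 ± 0.100 CPM in the remaining Col1a2-low libraries (SD, n = 57 and 100; log2 fold 1.37, adjusted p 7.01e-08). The sulfate transporter gene Slc13a4 had a log2 fold of 3.75 in all libraries, where 49 Col1a2-high ones lay above every Col1a2-low one. Its log2 fold was 0.57 (adjusted p 1.16e-06) in the remaining ones, where Col1a2-high libraries reached at most 3.93 CPM. The anion transporter gene Slc26a7 (0.62), the retinoid-metabolising cytochrome gene Cyp1b1 (0.38), the inter-alpha-trypsin inhibitor chain gene Itih2 (0.36) and the transcription factor gene Zic4 (0.35) complete the 10, as log2 folds in the remaining libraries. Pdgfra, a receptor gene of fibroblasts and of oligodendrocyte precursors, rose by 0.10 in all libraries and had a log2 fold of 0.052 (adjusted p 0.220) in the remaining ones. Of 13 arachnoid and dural markers 6 rose and 1 fell, against 13.4% of all genes higher and 8.62% lower. In the remaining libraries, where 0.342% of all genes were higher, 2 rose, Mgp and Cdh1, the E-cadherin gene of the arachnoid barrier (log2 fold 1.46, adjusted p 2.04e-06). The keratin genes Krt8 and Krt18, of arachnoid barrier and plexus epithelium, had log2 folds of 3.22 and 3.19 in all libraries and 0.23 and 0.26 (adjusted p 0.587 and 0.407) in the remaining ones.

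**Figure D3:**
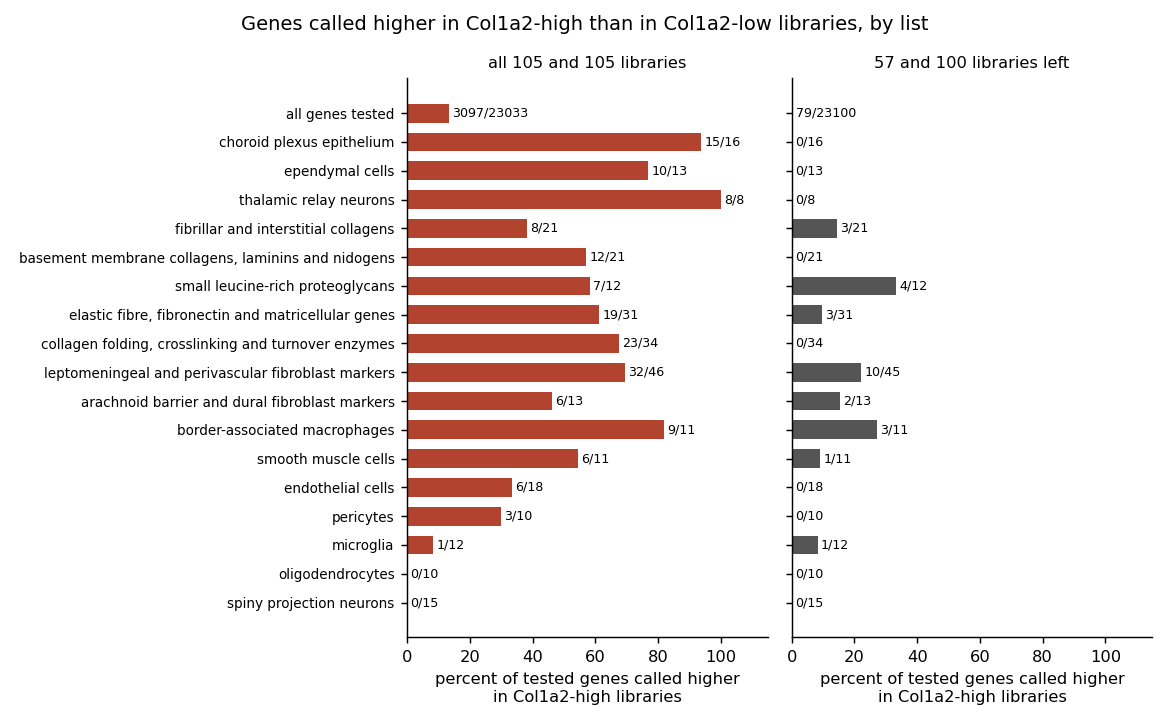
Percent of the tested genes of each list called higher in Col1a2-high libraries (x axis), in all libraries (left) and in the 57 Col1a2-high and 100 Col1a2-low libraries left (right) without Ttr-rich libraries and those standing apart. The leptomeningeal list has 32 of 46 genes called in all libraries and 10 of 45 in those left; the empty choroid plexus bar on the right follows from leaving libraries out by Ttr.

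Genes of secreted signals rose in part, beside 13.4% of all genes higher and 8.62% lower in all libraries. In the remaining libraries 0.342% of all genes were higher. A short list with no call or 1 call is not read as a result about the list. Of 19 genes of the insulin-like growth factor family 9 rose and none fell, and in the remaining libraries only Igf2 of 18 was called; Igfbp2, which encodes a binding protein, had log2 folds of 3.28 in all and 0.32 (adjusted p 0.0719) in the remaining libraries. Of 19 retinoic acid genes 9 rose and none fell. They included Rdh5, a retinol dehydrogenase gene (1.35), and Stra6, the receptor gene for retinol uptake (0.98), while Aldh1a2 was the 1 called in the remaining libraries. Of 31 BMP and TGF-beta genes 15 rose and 2 fell, with Tgfb2 (0.96), Bmp6 (0.66) and Bmp7 (0.63) among the ligands that rose. Tgfb1, the ligand best known for driving collagen synthesis, was the 1 called in the remaining libraries (log2 fold 0.12 in all and 0.14 in the remaining, adjusted p 0.0389). Of 14 PDGF and VEGF genes 11 rose and none fell, and none was called in the remaining libraries.

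**Figure D4:**
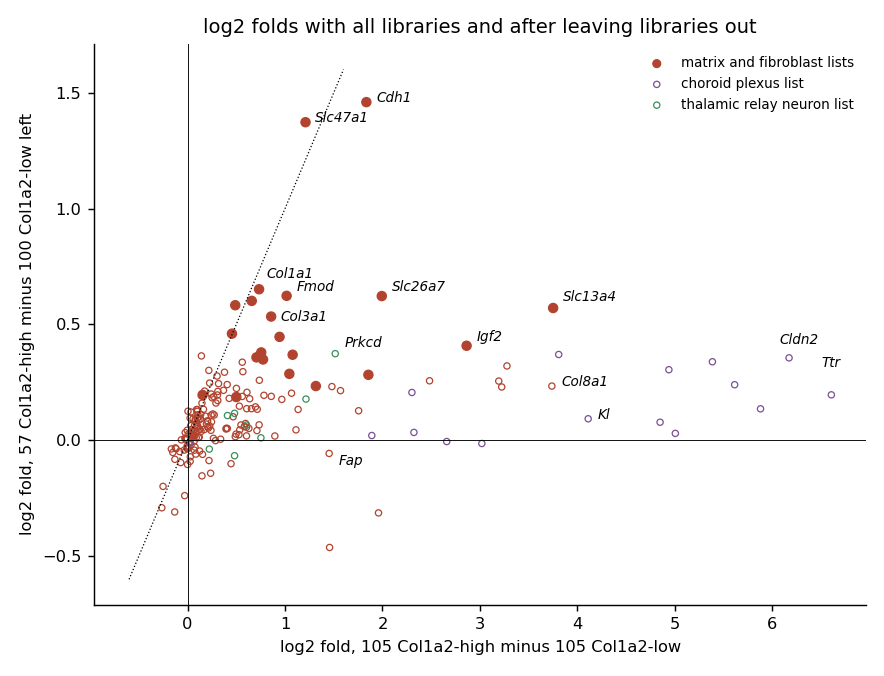
Log2 fold, Col1a2-high over Col1a2-low, of named matrix and fibroblast, choroid plexus and thalamic genes in all 210 libraries (x axis) and in the 57 Col1a2-high and 100 Col1a2-low libraries left (y axis); filled points were called in those left at an adjusted p under 0.05, and the dotted line marks equal folds. Col1a1 (0.73 and 0.65) and Slc47a1 (1.21 and 1.37) lie near the line and Igf2 (2.86 and 0.41) below it; the place of the choroid plexus genes follows from leaving libraries out by Ttr.

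Other cell types of the brain surface and ventricle moved in part. Over all genes 13.4% were higher and 8.62% lower in all libraries, and 0.342% were higher in the remaining ones. Of 11 border macrophage genes tested 9 rose, with a median log2 fold of 0.38, and 3 rose in the remaining libraries, where the median was 0.245. Mrc1, the mannose receptor gene of macrophages along vessels and meninges, ran from 1.28 to 5.82 CPM with a median of 2.63 CPM in Col1a2-high libraries, against 0.733 to 3.92 CPM with a median of 2.07 CPM in Col1a2-low libraries. Only 7 Col1a2-high libraries exceeded all Col1a2-low ones (log2 fold 0.38, SE 0.054, adjusted p 1.52e-09), and the log2 fold was 0.30 (adjusted p 0.00325) in the remaining libraries. The carbonyl reductase gene Cbr2 (0.64) and the scavenger receptor gene Stab1 (0.22) were the other two. Of 12 microglia genes 1 rose and 1 fell, and the riser, the receptor gene Csf1r, which macrophages share, was called in both, though not under 11 of 22 alternatives (log2 fold 0.064 in all, adjusted p 0.0380, and 0.12 in the remaining, adjusted p 0.0108). The summed microglia level had medians of 272.1 CPM in Col1a2-high and 273.1 CPM in Col1a2-low libraries. In the remaining libraries it ran from 213.7 to 350.1 CPM with a median of 294.5 CPM in Col1a2-high ones, against 222.4 to 332.7 CPM with a median of 273.2 CPM in Col1a2-low ones. The median sum was thus higher in the remaining Col1a2-high libraries, within ranges that overlapped almost wholly.

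Endothelial genes rose in 6 of 18 and pericyte genes in 3 of 10, beside 13.4% of all genes higher. None was called in the remaining libraries, where 0.342% of all genes were higher and no call in a short list is near that share. Smooth muscle genes rose in 6 of 11, and 1, the actin-binding Lmod1, in the remaining ones (log2 fold 0.24, adjusted p 0.0164). The summed endothelial level ran from 325.1 to 464 CPM with a median of 377.5 CPM in Col1a2-high libraries, against 289.9 to 457 CPM with a median of 357.8 CPM in Col1a2-low libraries, an overlap over most of the span. Ependymal genes rose in 10 of 13 (median 0.40), and none was called in the remaining libraries (median 0.16). The share that any of these cell types has in the collagen difference was not tested.

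With the mean log2 CPM of the choroid plexus, ependymal, cortical, thalamic and oligodendrocyte lists as covariates in all 210 libraries, 86 genes were higher and 53 lower. Higher and lower calls together made up 0.603% of the 23033 genes tested. Among the 86 were 10 of the 46 leptomeningeal markers, 3 of the 21 collagens, 2 of the 12 proteoglycans and 4 of the 11 border macrophage genes. The choroid plexus list is one of the covariates, so its own members are not counted. Col1a1 kept a log2 fold of 0.62 (adjusted p 2.63e-12), Col3a1 0.55 (1.15e-07), Aldh1a2 0.67 (1.52e-06) and Slc6a13 0.46 (8.85e-05). Igf2 kept 0.34 (adjusted p 0.000927) of its 2.86. With endothelial, pericyte, smooth muscle and red blood cell lists as covariates instead, Col1a1 had a log2 fold of 0.54 (adjusted p 1.83e-12) and Ttr 5.31 (8.25e-18).

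Of 15 genes of spiny projection neurons, the main neurons of the striatum, none rose and 1 fell, against 13.4% of all genes higher and 8.62% lower. It was the transcription factor gene Foxp1 (log2 fold -0.12, adjusted p 0.0459), for which the remaining libraries gave -0.035 (adjusted p 0.629). The dopamine receptor gene Drd1 ran from 1.54 to 406.05 CPM with a median of 296.6 CPM in Col1a2-high libraries, against 142.2 to 379.8 CPM with a median of 312.3 CPM in Col1a2-low libraries. The low end of the Col1a2-high class lay far under the Col1a2-low minimum, while the medians lay close (log2 fold -0.088, SE 0.057, adjusted p 0.281). Its lowest library, generation 21 female replicate 34, stood apart and is named below for a thalamic gene. In the remaining libraries Drd1 ran from 214.1 to 379.8 CPM in Col1a2-high and from 205.1 to 379.8 CPM in Col1a2-low ones. None of 10 oligodendrocyte genes, 9 neuroblast genes or 13 mitochondrially encoded messenger RNA genes was called in either direction. Of 10 astrocyte genes 1 rose and 2 fell.

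The genes lower in Col1a2-high libraries that are listed here had small folds. They were drawn from genes whose log2 CPM averaged 1 or more. The 24 genes lower past 1.5-fold, Usp9y (-3.37) among them, are outside this list. After the mitochondrial ribosomal RNA gene mt-Rnr1 (-0.51, SE 0.19), which ribosomal depletion of the RNA also acts on and whose call ended under 18 of 22 alternatives, came C1qtnf5 (-0.29), Chrdl1, a BMP antagonist gene (-0.25), Glra2, a glycine receptor gene (-0.20), Cnr1, the cannabinoid receptor gene of striatal neurons (-0.19), and Dlx6, a transcription factor gene of striatal neurons (-0.18), as log2 folds. The calls of Chrdl1, Glra2 and Cnr1 ended under 12, 9 and 8 of the 22 alternatives, and that of Foxp1 under 14. Cdr1, the locus of an abundant circular RNA that the counts cannot separate from a linear transcript, ran from 302.9 to 2298 CPM with a median of 945 CPM in Col1a2-high libraries, against 457 to 2345 CPM with a median of 1118 CPM in Col1a2-low libraries. The classes overlapped almost wholly (log2 fold -0.21, SE 0.064, adjusted p 0.00872), and the fall was of similar size in the remaining libraries (-0.28, adjusted p 0.0232).

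The libraries outside the classes gave the same contrast in material the classes did not use, split at their generation's median of Col1a2. There 8 of 22774 genes were called (0.0351%), 7 higher (0.0307%) and 1 lower (0.00439%), most of them processed pseudogenes whose reads can come from a near-identical copy, and 1290 had an unadjusted p under 0.05. DESeq2 called 1 there. The plexus gene Sostdc1 was among the 8 (log2 fold 1.37, SE 0.28, adjusted p 0.00872), at means of 0.81 and 0.29 CPM. The middle range held 5 libraries of Ttr above 100 CPM, most of them in its upper part. Without these 5, 7 genes were called (0.0306%), and a value of Sostdc1 without them is not given here. Col1a1 had a log2 fold of 0.15 (SE 0.040, adjusted p 0.164), Igf2 one of 0.31 (SE 0.078, adjusted p 0.164) and Dcn one of 0.19 (SE 0.060, adjusted p 0.488). In the middle range without its libraries of Ttr above 100 CPM, 55 of 75 genes that were higher in the remaining libraries had a positive fold, and 10 of 18 that were lower had a negative one. Over all 22803 genes tested in both, 53.96% had the same sign. Col1a2 itself spans little in that range.

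The size of the difference between classes varied by generation for 3389 genes (14.7%; edgeR's quasi-likelihood test of the generation by class terms), and for 0.844% of genes in the remaining libraries. They included 2 of 21 collagens, 1 of 12 proteoglycans and 7 of 46 leptomeningeal markers (15.2%), shares near or under that of all genes. Col1a1 had log2 folds of 0.84, 0.76 and 0.58 in generations 21, 22 and 23 (interaction adjusted p 0.404), and the interaction adjusted p was 0.848 for Col3a1, 0.482 for Dcn and 0.942 for Igf2. Slc6a13 had 0.71, 0.43 and 0.16 (interaction adjusted p 0.0277, and 0.492 in the remaining libraries).

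All 8 thalamic neuron genes tested differed between generations, against 14.7% of all genes, and 2 of 8 did in the remaining libraries, against 0.844%. With the generations together, all 8 rose in Col1a2-high libraries (median log2 fold 0.54), against 13.4% of all genes. None was called higher or lower in the remaining ones (median 0.086), where 0.342% of all genes were higher. Prkcd, a protein kinase gene of thalamic relay neurons, had log2 folds of 3.86, 0.17 and 0.17 in generations 21, 22 and 23 (interaction adjusted p 2.42e-11), and Slc17a6, the vesicular glutamate transporter gene of subcortical neurons, 3.74, -0.37 and -0.37 (interaction adjusted p 1.01e-07). Few libraries held this: the highest Prkcd levels, 1304, 909 and 545 CPM without further scaling, were in generation 21 female replicate 34, male replicate 35 and female replicate 1, all Col1a2-high and all standing apart. In all, 9 Col1a2-high libraries exceeded every Col1a2-low library for Prkcd. The summed thalamic level ran from 118.04 to 4360 CPM with a median of 176.1 CPM in Col1a2-high libraries, against 134.6 to 266.9 CPM with a median of 176.7 CPM in Col1a2-low libraries.

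**Figure D5:**
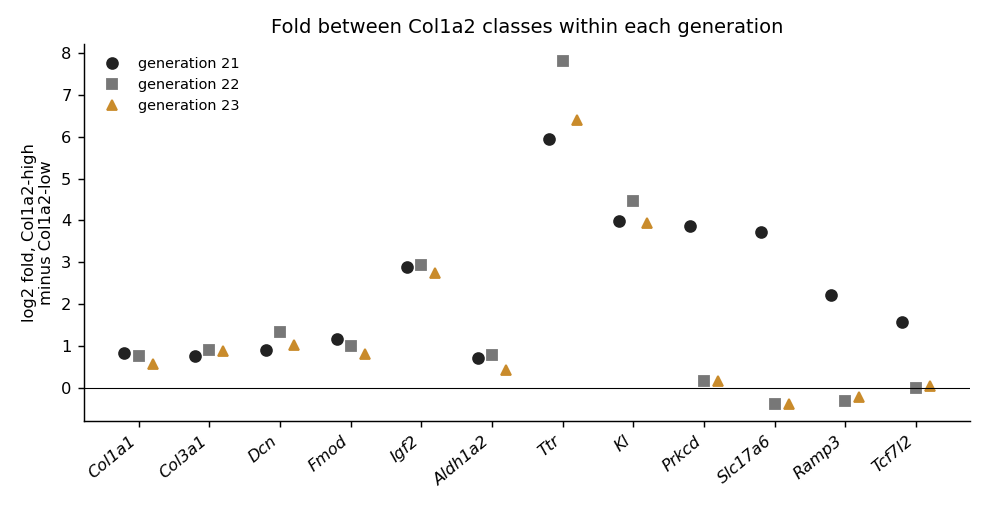
Log2 fold, Col1a2-high over Col1a2-low, of collagen, meningeal, plexus and thalamic genes (x axis) in generations 21, 22 and 23. Col1a1 is at 0.84, 0.76 and 0.58 while Prkcd is at 3.86, 0.17 and 0.17.

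The difference between classes did not vary detectably by labelled sex, but the test can miss small variation. Changes were added to simulated counts of Col1a2-high libraries labelled male. The test recovered 6.25% of 1.1-fold, 28% of 1.2-fold and 74% of 1.5-fold changes. In the test of the sex by class term 0 of 23033 genes were called by edgeR's quasi-likelihood test, with 1130 at an unadjusted p under 0.05. Without a filter on low counts edgeR called 5. The interaction adjusted p was 0.996 for Col1a1 and 0.999 for Igf2.

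Genes were ranked over all 416 libraries by Spearman correlation with Col1a2, as a description that shares libraries and depth with the classes. Only genes whose log2 CPM averaged 1 or more were ranked. Col3a1, Fmod, Slc6a13 and Aldh1a2 lie below this level and were left out. The closest of the genes ranked were Col1a1 (rho 0.584), Igf2 (0.569), Bgn (0.459), Dcn (0.452) and Ddr2 (0.432), a receptor gene for fibrillar collagen. Over the libraries left without Ttr-rich ones and those standing apart, the values were 0.486, 0.414, 0.290, 0.277 and 0.264. Their order among themselves was the same in both. Ddr2 itself had a log2 fold of 0.94 between the classes (SE 0.087, adjusted p 2.55e-19) and 0.31 in the remaining libraries (SE 0.051, adjusted p 1.69e-05). Over all 416 libraries the other 5 of the first 10 were Cpq, Tcn2, St5, Smo, a receptor gene of the hedgehog pathway, and Col18a1, at 0.427 to 0.405. In the libraries left, none of these 5 was among the first 10. Mrc1 (0.286, above Dcn), Fn1 (0.270, above Ddr2), Lama1 (0.254), Mmd2 (0.233) and Lrrk1 (0.229) stood there instead. Ttr was not among the 10 in either set.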

How the data were processed

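RNA of 416 striata was depleted of ribosomal RNA and sequenced from stranded libraries, per the labels' protocols. The authors deposited a table of estimated counts per Ensembl gene ID (46517 IDs, 23.8% of values not whole); how reads were aligned and counted, and on which genome build and annotation, is not given in the sources used here. Estimated counts were rounded to whole numbers (0.00502% of the total moved) and named by Ensembl ID from GENCODE release 21 for mouse (46005 IDs, 98.9%). Totals ran from 20331737 to 77458200 counts per library, with a median of 43516282. Each library has a number of its own in the labels, but nothing there states separate animals, so p-values measure the spread between libraries.

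Col1a2 CPM was the count over the column total times 1000000, and the classes lay at or above the 75th and at or below the 25th percentile per generation. Differences, Col1a2-high minus Col1a2-low, were tested with edgeR 4.0.16 (R 4.3.3; robust quasi-likelihood test, TMM scaling, generation as covariate, filterByExpr with a minimum count of 10, two-sided) with Benjamini-Hochberg adjustment over all genes except Col1a2, called at an adjusted p under 0.05. The SE was derived from the log2 fold and its F value. CPM of Col1a2, the CPM limits and the values of single libraries are plain; other ranges, medians, means and list sums are TMM-scaled. Alternatives used DESeq2 1.42.0, limma voom 3.58.1, RLE scaling, other filters, covariates, class limits and subsets. A library stood apart when its total was under 0.5 of the median or its median correlation lay over 4 scaled median absolute deviations below the median. An Xist limit of 100 CPM was set against labelled sex. The Ttr limit, and leaving out by it, were chosen after seeing the data. The tests were checked on simulated counts.

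Named were all measured members of the matrix, fibroblast and signal lists, up to 6 members per cell list, the 15 genes of largest fold per direction, the 10 most like Col1a2 and the 5 of smallest p per interaction; the text gives part of these, and one that the rule names is not reported here. Only genes whose log2 CPM averaged 1 or more could be named by largest fold or by likeness to Col1a2. Usp9y lies outside the rule for naming genes and was chosen after its values were seen. All 39 lists (545 symbols) and the members were chosen with earlier results of these data known, and lists that share genes overlap.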

Additional observations from a re-analysis of the deposited data

Results flagged for a closer look

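The following genes differed between generations in their Col1a2-high minus Col1a2-low difference, by the adjusted p of edgeR's quasi-likelihood test of the generation by class terms. All 3 generations are given in order as log2 folds. Prkcd (adjusted p 2.42e-11) had 3.86, 0.17 and 0.17, and Slc17a6 (adjusted p 1.01e-07) had 3.74, -0.371 and -0.365; their interaction adjusted p was 0.00729 and 0.063 in the remaining libraries. The transcription factor gene Zic4 stands on both the leptomeningeal list and the septal and pallidal list. Zic4 (adjusted p 0.00126) had 1.32, 0.46 and 0.37, with an adjusted p of 0.0386 in the remaining libraries. Calb2, the calcium-binding protein gene, (adjusted p 0.026) had 1.23, 0.73 and -0.058, with 0.0281 in the remaining libraries. Slc6a13 (adjusted p 0.0277) had 0.71, 0.43 and 0.165, with 0.492 in the remaining libraries. Dlx6, a transcription factor gene of striatal neurons, (adjusted p 0.0115) had -0.38, -0.14 and -0.018, and Foxp1 (adjusted p 0.0247) had -0.33, -0.041 and 0.027, with 0.207 and 0.0545 in the remaining libraries.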

How the results depend on the processing

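The share of genes called, 22.1% (5082), had a count within 1.5 times of itself with RLE scaling (5074), DESeq2 (4913), limma voom (4832), no filter (4944), a mean CPM of at least 1 (4383), labelled sex (4800) or total and mitochondrial share (4512) as covariates, without libraries of contrary Xist (4456), with the outer 10% as classes (5590), with classes on TMM-scaled Col1a2 (5014) and in generation 21 alone (6485). The share was 0.603% with 5 tissue lists and 6.07% with 4 vessel and blood lists as covariates, 5.19% without libraries of low total or correlation, 3.97% without Ttr-rich libraries and 0.424% without both. It was 4.36% in generation 22 and 3.56% in generation 23 alone, 7.02% in libraries labelled female and 11.6% in those labelled male alone, 11.7% for classes split at the median and 34.9% per doubling of Col1a2 over all libraries. Subsets hold fewer libraries; other causes were not tested. In the middle range, DESeq2 called 1 (0.00439%) and no filter gave 28 (0.0732%) in place of 8 (0.0351%). The generation interaction gave 0.191% without libraries of low total or correlation and 0.844% without both kinds, in place of 14.7%. The sex interaction called 5 (0.013%) with no filter and 1 (0.00434%) without libraries of low total or correlation, in place of 0. The odds ratio for labelled sex ran from 1.75 to 4.41.

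Over the 81 genes tested by name and 22 alternatives, 1484 of 1748 values kept direction and side of the threshold, 7 gained a call, 27 changed sign and the others lost their call. As log2 folds, the changes of sign with 5 tissue lists as covariates were Col14a1 (-0.012), Col4a3 (-0.31), Col4a4 (-0.43), Ecm2 (-0.0029), Kcne2 (-0.029), Mfrp (-0.12), Prlr (-0.18), Rdh5 (-0.065) and Slc17a6 (-0.017), and with 4 vessel and blood lists Col6a1 (0.0625). Without Ttr-rich libraries they were C1qtnf5 (0.0037), Col4a3 (-0.28) and Col4a4 (-0.43), without libraries of low total or correlation Drd1 (0.0026), and without both Col4a3 (-0.31), Col4a4 (-0.46), Col6a1 (0.0016), Drd1 (0.0056) and Mfrp (-0.016). In generation 22 alone they were Col6a1 (0.034) and Slc17a6 (-0.37), in generation 23 alone Calb2 (-0.058), Col4a2 (-0.0063), Foxp1 (0.027) and Slc17a6 (-0.365), with the outer 10% Col6a1 (0.077) and with classes split at the median mt-Rnr1 (0.17). The causes were not tested. Genes of under 1 CPM, such as Slc47a1, rest on few counts. No paired analysis was possible because the labels give no replicate numbers shared between the classes.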

Other observations

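Gene groups outside the connective tissue question had the counts below, beside 13.4% of all genes higher in all libraries and 0.342% in the remaining ones. There, a short list with 0 or 1 call is not read as a result about the list. Of 12 interferon-stimulated genes 8 were higher in Col1a2-high than in Col1a2-low libraries (median log2 fold 0.20), led by Bst2, which encodes the membrane protein tetherin (1.27, adjusted p 3.79e-15), and none was called in the remaining libraries (median 0.11). Of 7 superficial and reactive astrocyte genes 4 rose (median 0.17) and none in the remaining libraries. Of 4 genes of Cajal-Retzius and superficial cortical cells 2 rose, and 1, the calcium-binding protein gene Calb2, in the remaining libraries (log2 fold 0.74 in all and 0.74 in the remaining, adjusted p 0.00428). Of 9 septal and pallidal genes 3 rose, and 1 in the remaining libraries, Zic4, which also stands on the leptomeningeal list. Of 19 transporter genes of meninges, most of which also stand on the leptomeningeal list, 13 rose, and 5 in the remaining libraries.

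The other groups had the counts below in all libraries, beside 13.4% of all genes higher and 8.62% lower. In lists this short they are no result about the groups. Of the genes tested, 2 of 10 heat shock chaperones, 1 of 14 immediate early genes, 1 of 10 cortical excitatory, 1 of 9 oligodendrocyte precursor, 1 of 6 red blood cell and 1 of 2 mast cell genes rose. Of 12 interneuron genes 1 rose and 1 fell, and of 10 glucocorticoid-responsive genes 1 fell. In the remaining libraries none of these groups had a called gene. None of 3 lymphocyte and 5 Schwann cell genes was called in either set of libraries.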
